A study of Homo sapiens with 18 samples.

Results

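The RAB genes encode small GTPases that direct membrane traffic. A total of 63 protein-coding genes whose symbol is RAB followed by a number and at most 1 letter were examined, out of 58302 genes in the expression table, of which 19817 were protein-coding. The members were found by symbol and matched to their Ensembl identifiers. RAB1C, annotated as a processed pseudogene, was left out.

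RAB proteins cycle between a GDP-bound form held in the cytosol by GDP dissociation inhibitors and a GTP-bound form anchored in a membrane by prenyl groups. Guanine nucleotide exchange factors switch them on, GTPase-activating proteins switch them off, and the active form recruits effectors such as tethers, golgins and motor adaptors. Each member marks its own compartments, and several of them (RAB4, RAB5, RAB7, RAB11, RAB21 and RAB25) carry integrins into, through and out of endosomes in migrating epithelial and carcinoma cells. NAT10 is the acetyltransferase that writes N4-acetylcytidine (ac4C) on RNA.

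The cells were PANC-1, an established human pancreatic ductal adenocarcinoma line. The shCtrl group received a control lentivirus, an empty short hairpin RNA vector per the labels, while the study's methods list a non-targeting hairpin, and the shNAT10 group received a lentivirus whose hairpin targets NAT10. RNA-seq covered 3 libraries per group, and acetylated RNA immunoprecipitation sequencing (acRIP-seq) covered 3 immunoprecipitated (IP) and 3 input libraries per group, reported as 1 pooled peak list for each group. Which of the listed NAT10 hairpins was used is not given in the sources used here, and the labels do not say whether replicates were separate cultures, so p-values measure only the spread between these libraries.

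The RNA-seq libraries held 15831720 to 23521762 reads on genes. NAT10 was 31.6, 27.7 and 28.6 FPKM (fragments per kilobase of transcript, scaled to library depth) in the shCtrl libraries and 7.92, 8.43 and 7.90 FPKM in the shNAT10 libraries, a log2 difference of -1.84 (SE 0.08, adjusted p = 3.85e-05, limma). All 6 ductal epithelial markers looked at were detected, of which 4 keratins were lower and EPCAM and SOX9 higher in shNAT10, and none of 5 immune, 3 endothelial and 5 acinar and islet markers passed the expression filter. Of 5 fibroblast markers, COL1A1 and COL3A1 passed it. The second shCtrl library stood apart from its group. Its deviations from the group mean correlated with the GC content of the transcripts (r = 0.39 across genes, which are not independent replicates), and its reads differed from those of the other shCtrl libraries by a chi-square of 54.0 and 32.4 per gene, against 7.75 between the other two. Values without it are therefore given where they change a call. In bulk RNA, fewer cells of a kind and less RNA per cell cannot be told apart.

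Of the 63 RAB genes, 46 reached the filter of at least 1 FPKM in at least 3 libraries and were tested, out of 12982 genes tested in all. Their mean levels ran from 0.945 FPKM (RAB39B) to 125 FPKM (RAB1B), with a median of 12.8 FPKM, and 18 of them were at 20 FPKM or more. The family summed to 1118 ± 50.4 FPKM in shCtrl and 1053 ± 13.0 FPKM in shNAT10 (SD, n = 3). RAB1B, RAB1A and RAB7A, the members with the highest means, made up 30.0% of that sum in shCtrl and 27.6% in shNAT10.

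In shNAT10, 8 RAB genes were higher and 13 lower at an adjusted p under 0.05 by limma, and 25 were not called. These 21 calls are 45.7% of the members tested, beside 42.0% of all genes tested, of which 20.8% were higher and 21.2% lower, so the share of RAB genes that changed was close to the background. The median difference was -0.04 on the log2 scale over the members and -0.01 over all genes, and the median size of the difference was 0.28 and 0.31. The groups did not overlap for 29 members (11 higher, 18 lower), or 63.04%, beside 56.5% of all genes. Only 2 members, RAB7A and RAB39B, were called lower by more than 1 on the log2 scale, and none was called higher by more than 1, where the shares over all genes were 3.57% lower, 2.91% higher and 6.48% in either direction. Expressed as TPM, which moved the median of all genes by 0.11, the members split into 12 higher and 8 lower. All genes split into 3355 higher and 2075 lower there, so the balance of rises and falls depends on the scaling, in the family as over all genes. There RAB2B, RAB8B, RAB10, RAB14 and RAB15 lost their calls and RAB1A, RAB1B, RAB6A and RAB17 gained one. With no filter on FPKM 5 members were higher and 13 lower, beside 2241 higher and 2330 lower of 29695 genes. In that setting RAB8B, RAB12, RAB13, RAB15 and RAB22A lost their calls and RAB7B and RAB40B were called lower. Without the second shCtrl library 13 were higher and 15 lower, all 21 calls stood, and RAB1A, RAB1B, RAB5C, RAB17, RAB21, RAB26 and RAB34 were called too. Calls over all genes rose as well, from 5450 to 6621 of 12982. The count fell to 13, 11 and 12 when the first, second or the third shNAT10 library was left out. Over all genes it fell to 3660, 3671 and 3550 of 12982, so the drop was not particular to the family. Rises fell to 5 without the first or second shNAT10 library, and falls to 8 without the third shCtrl or first shNAT10 library and to 6 without the second or the third shNAT10 library. Over all genes, in the same order, rises fell from 2699 to 1829 and 1774. Falls over all genes went from 2751 to 1892, 1831, 1897 and 1765. The 9 members RAB2A, RAB3D, RAB4A, RAB5A, RAB6B, RAB7A, RAB29, RAB30 and RAB39B kept their call in every alternative that gave them a value. RAB39B reached the filter through its shCtrl libraries alone.

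**Figure D1:**
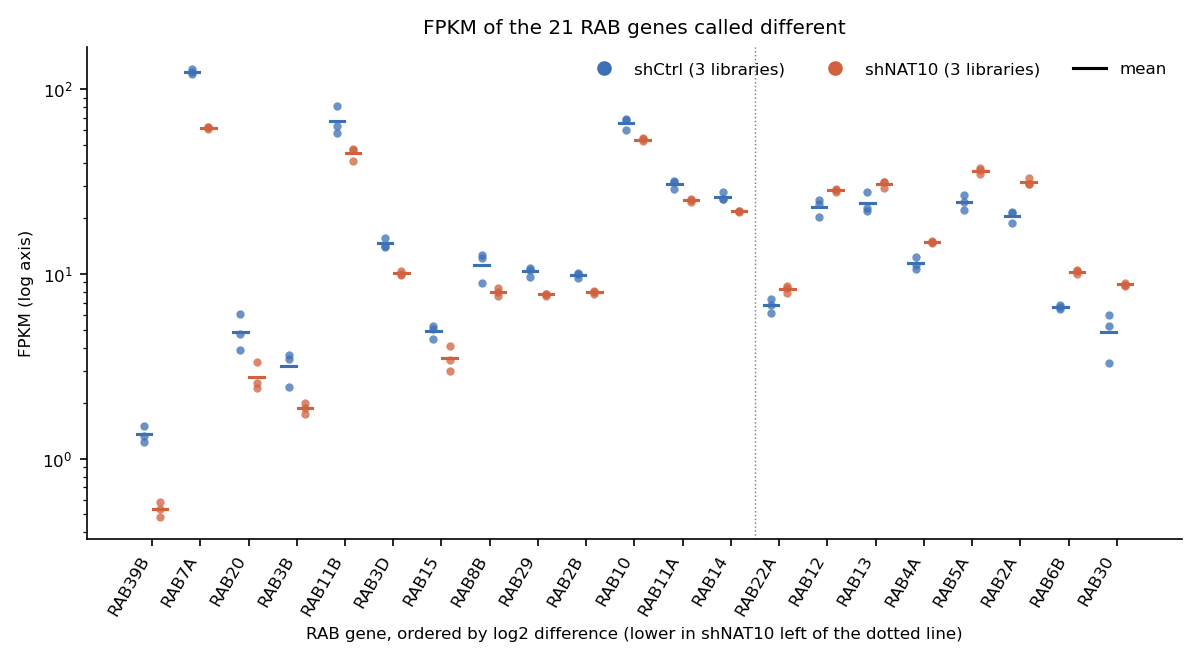
FPKM (log axis) of the 21 RAB genes called different, with 1 point per library, a bar for the mean of 3 libraries, shCtrl in blue and shNAT10 in red. In each gene the 3 shNAT10 libraries lie all below or all above the 3 shCtrl libraries, and RAB7A shows the widest gap among the highly expressed members.

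The largest change among abundant members was in the late endosome group. RAB7A, which drives the maturation of late endosomes and their fusion with lysosomes and autophagosomes, was 121, 128 and 124 FPKM in shCtrl and 62.2, 61.0 and 62.3 FPKM in shNAT10. The shNAT10 libraries all sat at about the same level, far under every shCtrl library. The log2 difference was -1.01 (SE 0.06, adjusted p = 6.83e-05, limma), it lay between -1.03 and -0.99 with any library left out, and it was called in all 16 alternatives. Under TPM it was -0.90, so whether it passes 1 on the log2 scale depends on the scaling. RAB7A made up 10.9% to 11.4% of the family's summed FPKM in shCtrl and 5.73% to 5.99% in shNAT10. The gene lies at chr3:128726122-128814796 on the plus strand (GRCh38), and its exons overlap no other annotated gene.

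RAB7A also had acRIP-seq peaks in both lists. The shCtrl list held 3 peaks, of which 1 lay wholly in the coding sequence (chr3:128806398-128806577, 3.34-fold IP over input) and 2 in the 3′ UTR (2.62-fold and 21.4-fold). The shNAT10 list held 2 peaks, both in the 3′ UTR (3.59-fold and 10-fold), and 1 of them overlapped both 3′ UTR peaks of shCtrl, by 150 bases and by 1 base. The coding peak, listed in shCtrl alone, covers bases 207 to 386 of the 621 coding bases. It is printed here 5′ to 3′ as the RNA strand in DNA letters, from the GENCODE 29 transcript, because RAB7A is the abundant member that changed most. Capitals mark each cytidine, the base that NAT10 acetylates, which acRIP-seq does not resolve within a peak.
RAB7A coding peak of shCtrl: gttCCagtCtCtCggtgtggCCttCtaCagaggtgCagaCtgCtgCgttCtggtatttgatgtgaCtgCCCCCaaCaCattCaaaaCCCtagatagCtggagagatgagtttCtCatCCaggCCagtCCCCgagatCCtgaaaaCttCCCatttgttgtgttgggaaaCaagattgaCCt
Cytidine made up 25.6% of it and 23.0% of the whole coding sequence.

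RAB20, linked to phagosome and endosome maturation, was 3.87, 6.05 and 4.71 FPKM in shCtrl and 3.33, 2.58 and 2.42 FPKM in shNAT10. The groups did not overlap but the lowest shCtrl library was close to the highest shNAT10 library (log2 difference -0.78, SE 0.19, adjusted p = 0.0155, limma). The call was lost without the second or the third shNAT10 library (adjusted p = 0.0570 and 0.0590). RAB9A, which returns cargo from late endosomes to the trans-Golgi, and RAB24, an autophagy member whose exons share 44.8% of their bases with MXD3, were not called (-0.37, SE 0.15, and 0.03, SE 0.28). RAB7B, the other RAB7 gene, stayed under the filter. It was 0.612, 0.639 and 0.635 FPKM in shCtrl and 0.105, 0.0853 and 0.0375 FPKM in shNAT10, so its groups did not overlap either. With no filter on FPKM it was called lower (log2 difference -2.07, SE 0.29, adjusted p = 0.00550, limma), on 32 to 45 reads in shCtrl libraries and 2 to 5 in shNAT10 libraries.

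In the early endosome group 2 of 6 members were higher and none lower (33.3% called, beside 42.0% of all genes). RAB5A, the GTPase that starts endosome fusion and clathrin-dependent entry of integrins, was 26.6, 22.3 and 24.5 FPKM in shCtrl and 36.3, 35.0 and 37.3 FPKM in shNAT10. Every shNAT10 library was above every shCtrl library (log2 difference 0.57, SE 0.08, adjusted p = 0.00199, limma). Its paralogs moved less. RAB5B was 34.04, 33.5 and 35.2 FPKM against 33.2, 32.5 and 31.9 FPKM (-0.07, SE 0.06, adjusted p = 0.359, limma), and RAB5C was 11.7, 17.9 and 13.5 FPKM against 16.0, 15.4 and 14.6 FPKM (0.11, SE 0.15, adjusted p = 0.578), with the second shCtrl library above all others. Without that library RAB5C was 0.28 higher at an adjusted p of 0.0194, and 28.8% of its exon bases are shared with another annotated gene. The log2 ratio of RAB5A to RAB5B rose from -0.49 ± 0.12 to 0.15 ± 0.06 (SD, n = 3) with no overlap. That of RAB5A to RAB5C was 0.78 ± 0.44 in shCtrl and 1.24 ± 0.10 in shNAT10, and its groups overlapped.

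RAB22A, which acts with RAB5 on early endosomes, was 6.77, 6.17 and 7.34 FPKM in shCtrl and 7.86, 8.41 and 8.58 FPKM in shNAT10 (log2 difference 0.29, SE 0.09, adjusted p = 0.0347, limma). The groups stood apart narrowly, the call was lost without any 1 of the first shCtrl library and the 3 shNAT10 libraries (adjusted p = 0.0572 to 0.121), and the difference was 0.09 once a trend against transcript length and GC content was taken out, a correction chosen after seeing the data. RAB21, which binds integrin tails directly, was 4.11, 3.86 and 4.397 FPKM against 3.39, 3.52 and 3.67 FPKM. Its groups did not overlap, yet it was not called (-0.22, SE 0.09, adjusted p = 0.0966, limma). It was called at -0.26 (adjusted p = 0.0418) without the second shCtrl library and at -0.46 (0.0462) with the length and GC correction. RAB31, a trans-Golgi to endosome member, was not called (0.06, SE 0.07).

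The recycling group split in both directions, with 2 of 9 tested members higher and 4 lower (66.7% called, beside 42.0% of all genes). RAB4A, which returns cargo from early endosomes by the fast route, was 10.7, 12.4 and 11.2 FPKM in shCtrl and 14.9, 15.1 and 14.8 FPKM in shNAT10 (log2 difference 0.39, SE 0.08, adjusted p = 0.00705, limma). The shNAT10 libraries were nearly equal and all above shCtrl. A share of 19.6% of its exon bases also belongs to SPHAR on the same strand. RAB12, which sends the transferrin receptor to lysosomes, was 20.3, 25.1 and 24.0 FPKM against 27.8, 28.5 and 28.9 FPKM (0.30, SE 0.09, adjusted p = 0.0358), a call that failed without the third shCtrl library or any 1 shNAT10 library (adjusted p = 0.0705 to 0.114).

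Both RAB11 genes, the GTPases of the slow recycling endosome, were lower. RAB11A was 28.8, 31.8 and 31.5 FPKM in shCtrl and 24.6, 25.5 and 25.1 FPKM in shNAT10 (log2 difference -0.29, SE 0.07, adjusted p = 0.0132, limma). RAB11B was 57.6, 80.6 and 63.4 FPKM against 47.0, 47.3 and 40.9 FPKM (-0.56, SE 0.13, adjusted p = 0.0135), and its highest value was in the second shCtrl library, without which the difference was -0.43. Neither gene's groups overlapped. The RAB11A call failed without the third shCtrl library or any 1 shNAT10 library (adjusted p = 0.0501 to 0.0598), and the RAB11B call without the third shNAT10 library (0.0556).

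RAB11A is shown by sequence too, since the shCtrl list placed 2 peaks wholly in its coding sequence and the shNAT10 list none. They lay at chr15:65877459-65877902 and chr15:65879736-65887835 on the plus strand of GRCh38, each across 1 intron, with 3.22-fold and 2.06-fold enrichment. Capitals again mark each cytidine.
RAB11A first coding peak of shCtrl, coding bases 168 to 377: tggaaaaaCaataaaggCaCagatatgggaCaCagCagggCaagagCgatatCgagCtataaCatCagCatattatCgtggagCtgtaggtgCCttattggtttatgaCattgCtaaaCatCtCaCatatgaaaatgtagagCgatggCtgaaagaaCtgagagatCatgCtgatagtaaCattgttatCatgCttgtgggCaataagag
RAB11A second coding peak of shCtrl, coding bases 496 to 646: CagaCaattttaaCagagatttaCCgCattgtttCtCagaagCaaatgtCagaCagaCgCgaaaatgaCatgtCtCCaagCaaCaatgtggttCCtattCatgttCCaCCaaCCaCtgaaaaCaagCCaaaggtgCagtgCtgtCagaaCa
Cytidine made up 15.2% of the first and 23.8% of the second, beside 19.3% of the coding sequence. In the 3′ UTR, shCtrl had a 19.8-fold peak and shNAT10 a 70.6-fold peak at another position.

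RAB14, which moves cargo between the trans-Golgi and recycling endosomes, was 25.5, 25.3 and 27.7 FPKM in shCtrl and 21.7, 21.9 and 22.0 FPKM in shNAT10 (log2 difference -0.26, SE 0.07, adjusted p = 0.0186, limma). RAB15, an endosome recycling member, was 5.07, 5.22 and 4.43 FPKM against 4.10, 2.97 and 3.41 FPKM (-0.49, SE 0.14, adjusted p = 0.0260). Both sets of libraries were disjoint, and both calls failed when single libraries were left out, 4 libraries for RAB14 (adjusted p = 0.0699 to 0.0783) and 3 for RAB15 (0.0537 to 0.0846). Both failed under TPM as well, at -0.15 (adjusted p = 0.166) for RAB14 and -0.39 (0.0640) for RAB15. RAB35 and RAB4B, further recycling members, were not called (0.01, SE 0.09, and -0.01, SE 0.19), and RAB4B shares 36.8% of its exon bases with readthrough genes. RAB17, an epithelial transcytosis member at a low level, was 1.69, 1.95 and 1.52 FPKM against 3.64, 2.58 and 2.01 FPKM and was not called (0.61, SE 0.22, adjusted p = 0.0636, limma). It was called at 0.70 (adjusted p = 0.0403) without the second shCtrl library, at 0.80 (0.0338) without the third shNAT10 library, at 0.73 (0.0360) under TPM and at 0.70 (0.0210) with the length and GC correction. RAB25, the epithelial RAB11 relative, was listed at 0 in 2 shCtrl libraries and in 1 shNAT10 library and at most at 0.134 FPKM.

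Among the 13 tested members of the endoplasmic reticulum and Golgi, 3 were higher and 3 lower (46.2% called, beside 42.0% of all genes). RAB2A, which acts in traffic between the reticulum and the Golgi and in autophagosome fusion, was 19.0, 21.3 and 21.7 FPKM in shCtrl and 30.7, 32.98 and 30.9 FPKM in shNAT10 (log2 difference 0.61, SE 0.08, adjusted p = 0.00116, limma). RAB2B, its paralog, went the other way, from 10.02, 9.53 and 10.1 FPKM to 8.02, 7.75 and 8.05 FPKM (-0.31, SE 0.07, adjusted p = 0.00994). Each gene's libraries were well separated. The log2 ratio of RAB2A to RAB2B rose from 1.05 ± 0.13 to 1.97 ± 0.09 (SD, n = 3). The RAB2B call failed without the second shNAT10 library (adjusted p = 0.0515) and under TPM (-0.21).

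RAB6B was the member called higher with the lowest adjusted p. This relative of RAB6A, a GTPase of retrograde Golgi traffic, was 6.63, 6.43 and 6.80 FPKM in shCtrl and 10.5, 10.3 and 9.99 FPKM in shNAT10 (log2 difference 0.63, SE 0.07, adjusted p = 0.000636, limma). RAB6A stood above it by 3.38 on the log2 scale in shCtrl and was not called. Its values were 70.8, 66.3 and 73.2 FPKM against 77.1, 77.1 and 79.2 FPKM, without overlap (0.15, SE 0.06, adjusted p = 0.0962), and some of its reads may be shared with RAB6C and RAB6D, which hold 75-base stretches in common with it. The log2 ratio of RAB6A to RAB6B fell by 0.48, with no overlap.

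RAB30, a Golgi GTPase, showed the largest rise, from 5.99, 3.31 and 5.23 FPKM to 8.66, 8.72 and 8.95 FPKM (log2 difference 0.89, SE 0.20, adjusted p = 0.0123, limma). The second shCtrl library was the lowest, and without it the rise was 0.64. RAB29, which recruits the kinase LRRK2 to Golgi and lysosome membranes, was 10.6, 9.65 and 10.7 FPKM against 7.84, 7.81 and 7.59 FPKM (-0.41, SE 0.07, adjusted p = 0.00482). RAB39B, an autophagy-linked member known from X-linked intellectual disability, was at a low level, 1.51, 1.23 and 1.32 FPKM in shCtrl and 0.487, 0.587 and 0.533 FPKM in shNAT10. It had the largest fall of the tested members, and no library of the groups overlapped (-1.19, SE 0.22, adjusted p = 0.00519). All its shNAT10 values were under 1 FPKM, so it was tested only through shCtrl, the group where it was high. Its rank and separation carry that selection. The abundant RAB1 pair, which brings cargo into the Golgi, was not called. RAB1A was 85.8, 94.7 and 93.3 FPKM against 98.0, 105 and 97.8 FPKM (0.14, SE 0.07, adjusted p = 0.149, limma), and RAB1B 113, 134 and 114 FPKM against 135, 131 and 122 FPKM (0.10, SE 0.09, adjusted p = 0.369). Under TPM both were called higher, by 0.25 and 0.21, and so they were without the second shCtrl library, by 0.16 (adjusted p = 0.0455) and 0.18 (0.0232). RAB1B stood at 0.33 (0.000885) with the length and GC correction, and 42.6% of the exon bases of RAB1B face antisense genes. RAB18, RAB33B, RAB34 and RAB39A lay between -0.24 and 0.06 and were not called, though RAB34 was called at 0.22 (adjusted p = 0.0156) without the second shCtrl library.

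**Figure D2:**
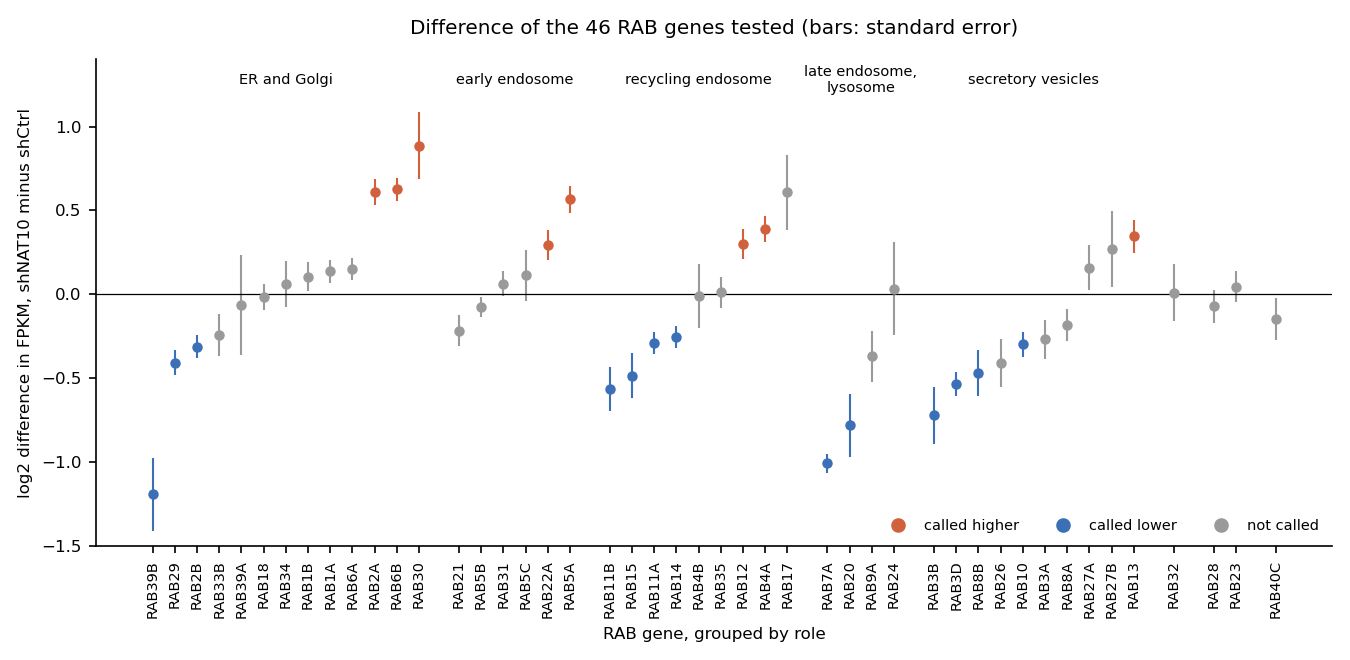
Log2 difference in FPKM (shNAT10 minus shCtrl, with the standard error as bars) of the 46 tested RAB genes, grouped by compartment, with called members in red (higher) or blue (lower). Rises and falls occur together in the Golgi, recycling and secretory groups, the early endosome group holds no fall that was called, and RAB7A and RAB39B are the members under -1; the last 4 genes on the right belong to lysosome-related organelles, the cilium and the SOCS box group.

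Of 10 tested members of secretory vesicles and exocytosis, 1 was higher and 4 lower (50% called, beside 42.0% of all genes). RAB3D, a granule GTPase of exocrine cells, was 14.1, 15.7 and 14.2 FPKM in shCtrl and 10.1, 10.4 and 9.87 FPKM in shNAT10 (log2 difference -0.53, SE 0.07, adjusted p = 0.00157, limma), and its call stood in all 16 alternatives. RAB3B was 3.67, 2.45 and 3.46 FPKM against 1.75, 1.87 and 1.99 FPKM (-0.72, SE 0.17, adjusted p = 0.0140). The second shCtrl library was its lowest control, and the difference was -0.90 without it. The call failed without the third shCtrl or the first shNAT10 library (adjusted p = 0.0568 and 0.0538).

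RAB10, which delivers vesicles to the plasma membrane and extends the reticulum, was 67.8, 59.98 and 69.3 FPKM in shCtrl and 52.3, 54.2 and 53.5 FPKM in shNAT10 (log2 difference -0.30, SE 0.07, adjusted p = 0.0171, limma). RAB8B was 12.6, 8.91 and 12.2 FPKM against 7.63, 8.004 and 8.35 FPKM (-0.47, SE 0.14, adjusted p = 0.0305). RAB13, a tight junction GTPase, was the member that rose, from 22.0, 27.8 and 22.9 FPKM to 31.3, 31.4 and 29.3 FPKM (0.35, SE 0.10, adjusted p = 0.0292). In all 3 the second shCtrl library was the one nearest to shNAT10, and RAB13 shares 24.8% of its exon bases with another gene. Their calls failed when single libraries were left out, 4 libraries for RAB10 (adjusted p = 0.0594 to 0.0709) and 5 each for RAB8B (0.0651 to 0.102) and RAB13 (0.0603 to 0.0999). RAB10 (-0.19, adjusted p = 0.160) and RAB8B (-0.37, 0.130) were not called under TPM either. RAB8A, which works with RAB8B at the cilium and the plasma membrane, overlapped between groups at 23.2, 27.5 and 22.3 FPKM against 22.4, 20.3 and 21.3 FPKM (-0.18, SE 0.09), and 37.8% of its exon bases face an antisense gene.

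RAB26, a secretory granule GTPase, was 25.3, 38.2 and 28.98 FPKM against 22.5, 23.3 and 22.7 FPKM. It narrowly missed the threshold (-0.41, SE 0.14, adjusted p = 0.0543, limma), with the second shCtrl library far above the rest, and without that library it was called at a smaller difference of -0.25 (adjusted p = 0.0178). RAB3A, RAB27A and RAB27B, the last of these known from exosome release, were not called (-0.27, 0.16 and 0.27). RAB32 of lysosome-related organelles, RAB23 and RAB28 of the cilium, and RAB40C, an adaptor of a ubiquitin ligase, lay between -0.15 and 0.04 and were not called either, and 57.7% of the exon bases of RAB23 face BAG2 on the other strand.

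The 17 members under the filter had means of at most 0.978 FPKM, and 5 of them (RAB3C, RAB19, RAB25, RAB41 and RAB44) were listed at 0 in at least 1 library. The others were RAB6C, RAB6D, RAB7B, RAB9B, RAB33A, RAB36, RAB37, RAB38, RAB40A, RAB40B, RAB42 and RAB43. Besides RAB7B, the groups did not overlap for RAB9B, RAB36 and RAB40B, all lower in shNAT10, nor for RAB43, which was higher. These rest on few reads per library. RAB43 had 9, 10 and 12 reads in shCtrl and 14, 17 and 13 in shNAT10, and RAB9B 52, 44 and 76 against 32, 28 and 24. The share without overlap over all genes under the filter was not computed, so no background stands beside these members. RAB40B went from 0.971, 1.32 and 0.936 FPKM to 0.491, 0.600 and 0.410 FPKM, and with no filter it was called lower (-0.97, SE 0.25, adjusted p = 0.0494, limma). RAB43 shares 79.3% of its exon bases with the readthrough gene ISY1-RAB43, so its own level is uncertain.

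The integrin traffic genes fixed as a list (RAB4A, RAB5A, RAB5C, RAB7A, RAB11A, RAB11B, RAB21, RAB25 and the RAB11 effector RAB11FIP1) held 8 tested genes, of which 3 were higher and 3 lower (75% called, beside 42.0% of all genes), with a median of -0.05 on the log2 scale. The uptake and fast recycling GTPases RAB5A and RAB4A were on the higher side, and RAB7A, RAB11A and RAB11B on the lower side. Not all of the list followed these sides. RAB21, also of the early endosome group, lay lower without overlap but was not called (-0.22, SE 0.09). RAB5C was not called either (0.11, SE 0.15), and RAB25 was not tested. RAB11FIP1 rose from 2.40, 2.02 and 2.30 FPKM to 3.13, 3.37 and 3.50 FPKM (log2 difference 0.55, SE 0.11, adjusted p = 0.00796, limma), and it is counted among the effectors too. The log2 ratio of RAB7A to RAB5A, the GTPases that follow each other on a maturing endosome, was 2.19, 2.52 and 2.33 in shCtrl and 0.77, 0.80 and 0.74 in shNAT10. It was lower in all 3 shNAT10 libraries, with a mean difference of -1.57. With 3 libraries against 3 an exact two-sided permutation test cannot go below p = 0.1, so ratios are given without a test. Among the other paralog ratios, RAB11A to RAB11B and RAB4A to RAB4B stood apart between groups. The ratios of RAB1A to RAB1B, RAB3B to RAB3D, RAB8A to RAB8B and RAB27A to RAB27B overlapped.

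The proteins that act on RABs were read from 4 lists of 130 genes, of which 111 were tested. Here 44 were higher and 16 lower (54.1% called, beside 42.0% of all genes), with a median difference of 0.21. Under TPM 47 were higher and 9 lower, beside 3355 higher and 2075 lower over all genes. Counts for the 16 falls dropped to 7 without the third shCtrl library and to 9, 6 and 8 without the first, second or the third shNAT10 library, and the calls in either direction dropped to 39 without the second shNAT10 library. Over all genes, in the same order, falls dropped from 2751 to 1892, 1831, 1897 and 1765, and calls from 5450 to 3671. Effectors and kinases made up the largest part, with 20 higher and 5 lower of 38. Exchange factors followed with 13 higher and 4 lower of 34, and GTPase-activating proteins with 10 higher and 5 lower of 31.

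BICD2, the dynein adaptor that RAB6 recruits, was 2.56, 1.91 and 2.06 FPKM in shCtrl and 12.3, 11.9 and 11.6 FPKM in shNAT10, the largest change in the 4 lists (log2 difference 2.41, SE 0.12, adjusted p = 5.07e-05, limma). GOLGA2, the cis-Golgi tether GM130, rose from 7.88, 8.53 and 7.51 FPKM to 20.98, 19.4 and 20.03 FPKM (1.33, SE 0.08). RAB11FIP4, a RAB11 effector, rose from 0.702, 0.762 and 0.626 FPKM to 2.15, 1.74 and 1.76 FPKM (1.31, SE 0.19). All 3 genes had every shNAT10 library above every shCtrl library. The shCtrl values of RAB11FIP4 were all under the filter, so it was tested only through shNAT10, the group where it was high. Its rank and separation carry that selection. RUFY1, an effector of RAB4 and RAB14, fell from 23.4, 28.5 and 23.4 FPKM to 12.5, 13.5 and 10.8 FPKM (-1.03, SE 0.11), and UNC13D, the RAB27 effector of granule release, was lower by the log2 difference of -0.87 (SE 0.15). GCC2, a trans-Golgi golgin, was lower as well (-0.67, SE 0.21), a call that failed without any 1 library other than the second shCtrl library (adjusted p = 0.0719 to 0.118) and under TPM (0.109).

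Among exchange factors DENND5A rose by 1.21 (SE 0.07), from 14.8, 12.8 and 13.99 FPKM to 31.8, 32.1 and 32.5 FPKM, DENND2D by 1.14 (SE 0.26) and RAB3GAP1, a subunit of the RAB18 exchange factor, by 0.87 (SE 0.10). RAB3IL1, which activates RAB3 and RAB8 members, differed by -0.80 (SE 0.20), MON1A, a subunit of the RAB7 exchange factor, by -0.65 (SE 0.11) and ST5 by -0.42 (SE 0.09). The RAB3IL1 call failed without the third shCtrl library (adjusted p = 0.0620) and the ST5 call without the second shNAT10 library (0.0506). MON1A was 5.27, 5.85 and 4.53 FPKM in shCtrl and 3.15, 3.32 and 3.36 FPKM in shNAT10, with no overlap.

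GTPase-activating proteins were led by TBC1D9B, which acts on RAB11, with 29.7, 29.5 and 29.1 FPKM against 71.4, 71.1 and 67.8 FPKM (log2 difference 1.25, SE 0.06, adjusted p = 5.03e-05, limma). TBC1D5, a retromer partner that acts on RAB7, went from 9.63, 6.37 and 8.54 FPKM to 17.1, 17.2 and 17.1 FPKM (1.08, SE 0.14). TBC1D4, known from insulin-driven traffic, rose by 0.96 (SE 0.15). The largest falls were small, -0.41 (SE 0.12) for TBC1D17, -0.34 (SE 0.08) for TBC1D25 and -0.30 (SE 0.09) for TBC1D2B. These 3 calls failed without single libraries, 4 for TBC1D17 (adjusted p = 0.0680 to 0.112), the second shNAT10 library for TBC1D25 (0.0557) and any but the second shCtrl library for TBC1D2B (0.0631 to 0.107), which was not called under TPM (-0.20, adjusted p = 0.228) either. In the list of prenylation and inhibitor genes, RABGGTB, the catalytic subunit of the prenyltransferase, and RABIF, a chaperone of nucleotide-free RABs, were lower (-0.69, SE 0.10, and -0.62, SE 0.08).

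**Figure D3:**
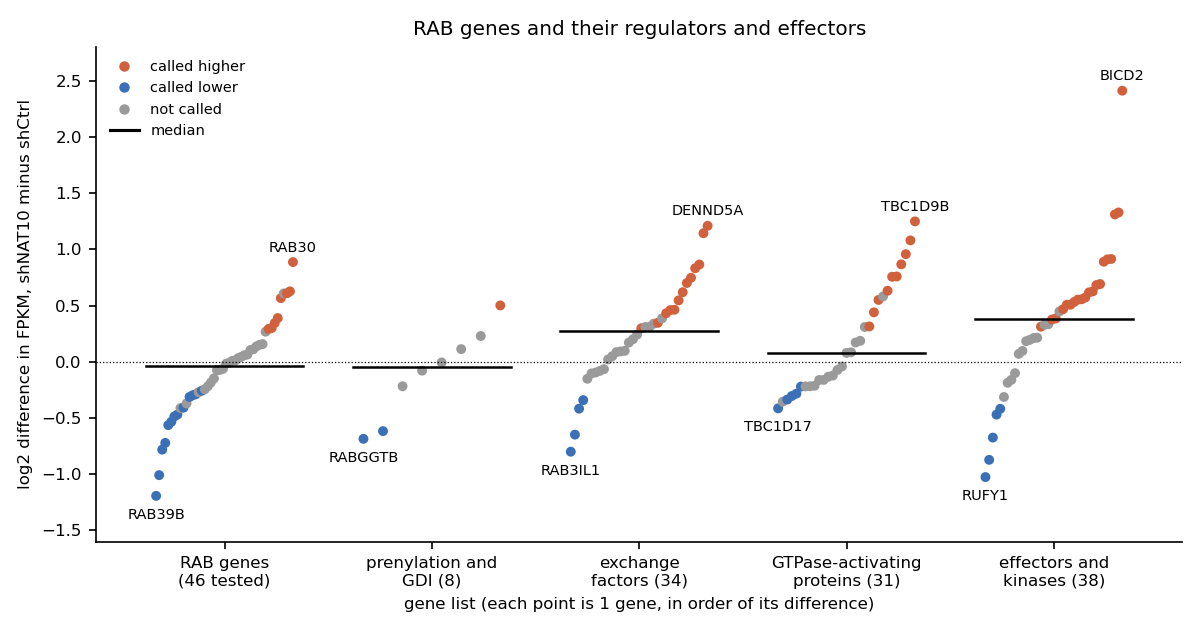
Log2 difference in FPKM (shNAT10 minus shCtrl) of each tested gene, ordered within its list, for the RAB genes and 4 lists of their regulators and effectors, with called genes in red (higher) or blue (lower) and the median as a bar. The medians are -0.04 for RAB genes and 0.38 for effectors and kinases, and BICD2 at 2.41 is the highest point.

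The acRIP-seq lists were read next for which RAB transcripts had a peak in each group. The paper points out that acRIP-seq is prone to false positives. No ac4C-seq data were checked here for any RAB gene, so a peak is not proof of ac4C. With 1 pooled list per group there is no replicate check and no test, and the fold enrichment is IP over input within a list. The shCtrl list held 48 peaks on 29 RAB genes and the shNAT10 list 43 peaks on 27, with 17 genes in both lists, 12 in shCtrl alone, 10 in shNAT10 alone and 24 in neither. Of the 46 members tested in the RNA-seq, 28 had a peak in shCtrl (60.9%, 95% Wilson interval 46.5% to 73.6%) and 22 in shNAT10 (47.8%, 34.1% to 61.9%). The shares over all genes tested were 49.6% and 47.7%, and those over tested protein-coding genes 55.5% and 53.7%, all inside those intervals, which cover counting error only. A peak in both lists was found for 16 tested members (34.8%, beside 33.7% of all genes tested). For 12 it was in shCtrl alone (26.1%, Wilson interval 15.6% to 40.3%, beside 15.8%) and for 6 in shNAT10 alone (13.0%, beside 13.9%). Over tested protein-coding genes these shares were 38.5%, 17.1% and 15.2% in the same order.

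The median enrichment of RAB peaks was 18.0-fold in shCtrl and 17.4-fold in shNAT10, beside 49.3-fold and 45.2-fold over all peaks. By the middle base of each peak, 27 of 48 shCtrl peaks and 27 of 43 shNAT10 peaks fell in the 3′ UTR, 11 and 11 in the coding sequence, 5 and 3 in the 5′ UTR, and 5 and 2 off the longest coding transcript. The coding sequence makes up 15.9% and 19.4% of the length of these transcripts and the 3′ UTR 76.2% and 71.7%.

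**Figure D4:**
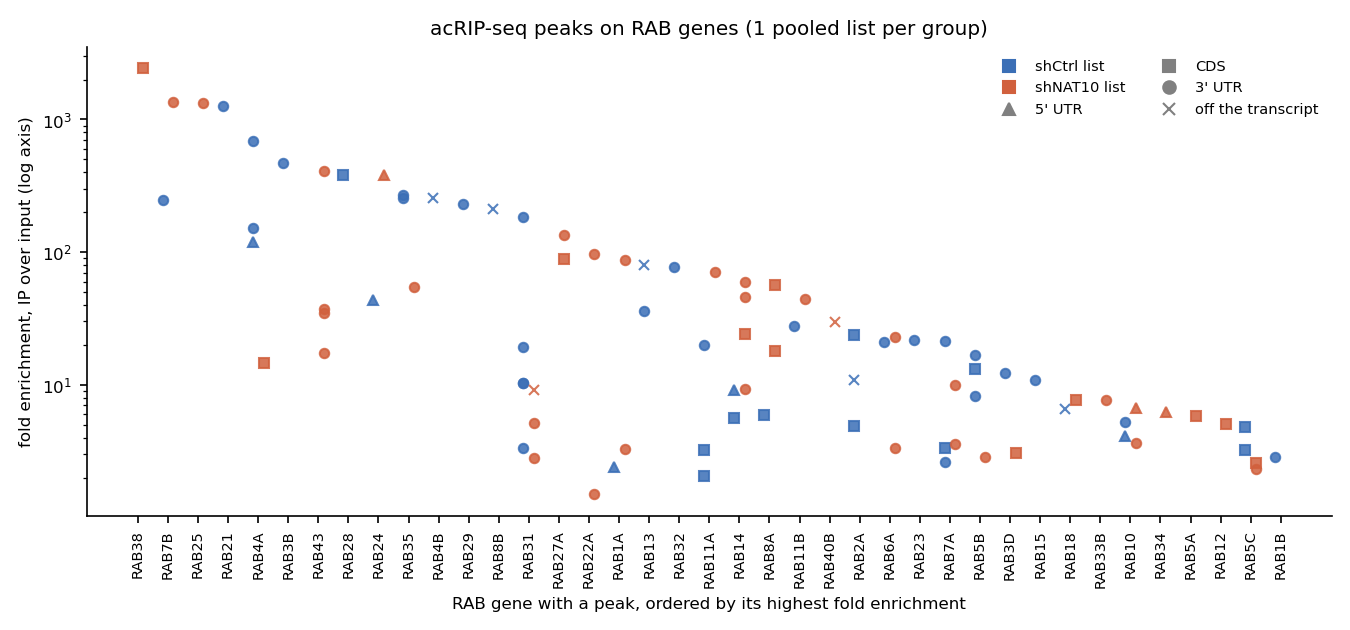
Fold enrichment of IP over input (log axis) of each acRIP-seq peak on a RAB gene, by gene, with the shCtrl list in blue, the shNAT10 list in red and the part of the transcript as the symbol. Values run from 1.49 (RAB22A, shNAT10) to 2430 (RAB38, shNAT10). At overlapping positions RAB24 is higher in shNAT10 and RAB35 in shCtrl, while the RAB4A peaks of the lists lie at different positions.

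Several of the highest enrichments sat on members listed with low FPKM values. RAB38 (2430-fold, centred in the coding sequence), RAB25 (1340-fold, 3′ UTR) and RAB7B (1350-fold in shNAT10 and 249-fold in shCtrl, 3′ UTR) were all under the expression filter. RAB43, with 4 shNAT10 peaks of up to 411-fold, was listed under it too. Its exons share 79.3% of their bases with ISY1-RAB43, so its level and the transcript that holds these peaks are uncertain. Of expressed members, RAB21 had a single 1260-fold peak in shCtrl and RAB3B a 468-fold shCtrl peak, and neither had one in shNAT10. RAB4A had 3 shCtrl peaks of 119, 153 and 688-fold in its UTRs and 1 shNAT10 peak of 14.7-fold in the coding sequence, at positions that did not overlap. RAB24 was 43.2-fold in shCtrl and 379-fold in shNAT10 at overlapping positions of its 5′ UTR. RAB28 had 1 shCtrl peak of 384-fold across 3 coding exons, and RAB35 had shCtrl peaks of 258-fold and 268-fold against 54.9-fold in shNAT10.

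Peaks at the same place in both lists were few, 10 of 48 in shCtrl (20.8%) and 9 of 43 in shNAT10 (20.9%), beside 25.6% and 27.4% of all peaks, and 7 of them shared at least 50% of both peaks. They lay on RAB10 (5′ and 3′ UTR), RAB7A, RAB5B, RAB35, RAB31 and RAB11B (3′ UTR), RAB24 (5′ UTR) and RAB8A (coding sequence). RAB10 was 4.14-fold and 6.68-fold at the 5′ site and 5.23-fold and 3.67-fold at the 3′ site, in shCtrl and shNAT10. RAB31 was 10.4-fold and 5.13-fold, RAB5B 8.16-fold and 2.85-fold, and RAB11B 27.5-fold and 44.5-fold in the same order. RAB8A, 5.87-fold and 17.9-fold, held the only shared coding peak. Its 120 shared bases, at chr19:16128077-16132265 on the plus strand of GRCh38, are printed beside the RAB28 peak, the most enriched wholly coding peak, and the RAB4A coding peak listed in shNAT10 alone, with each cytidine in capitals.
RAB8A, coding bases 466 to 585, both lists: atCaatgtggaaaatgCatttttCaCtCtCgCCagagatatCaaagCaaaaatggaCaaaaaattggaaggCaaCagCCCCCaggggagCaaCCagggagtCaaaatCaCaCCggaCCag
RAB28, coding bases 52 to 230, shCtrl (chr4:13474349-13484099, minus strand): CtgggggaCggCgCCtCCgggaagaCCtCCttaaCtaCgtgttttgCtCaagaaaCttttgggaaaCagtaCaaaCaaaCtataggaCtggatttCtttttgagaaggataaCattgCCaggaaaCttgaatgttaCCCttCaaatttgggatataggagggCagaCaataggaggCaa
RAB4A, coding bases 284 to 463, shNAT10 (chr1:229295904-229298994, plus strand): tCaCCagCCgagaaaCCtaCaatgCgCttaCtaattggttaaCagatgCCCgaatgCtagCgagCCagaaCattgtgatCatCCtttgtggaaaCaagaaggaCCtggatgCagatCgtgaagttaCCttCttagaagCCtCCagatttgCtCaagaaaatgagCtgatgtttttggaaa
Cytidine made up 23.3%, 18.4% and 21.1% of these, beside 23.7%, 17.7% and 19.0% of the coding sequences they come from. Over the 9 wholly coding peaks whose sequence was read (on 8 genes, without the stretch shared on RAB8A, and with a wholly coding RAB2A peak not analysed here) it ranged from 13.0% to 31.7% and exceeded that of the gene's own coding sequence in 5.

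Cytidine followed by any 2 bases, repeated, is the context usually given for ac4C. The string CNNCNNCNNCNN, searched on the RNA strand only and with overlapping matches allowed, was found 3 times in the RAB3D coding peak of shNAT10, and once each in the second RAB11A peak, the RAB28 peak and the stretch shared on RAB8A. It was not found in the RAB7A, RAB4A, RAB12, RAB14 and RAB18 peaks and from the first RAB11A peak. Windows of 180 bases over the coding sequences of all members hold it in 53.3%, and a match here is a description of letters only.

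**Figure D5:**
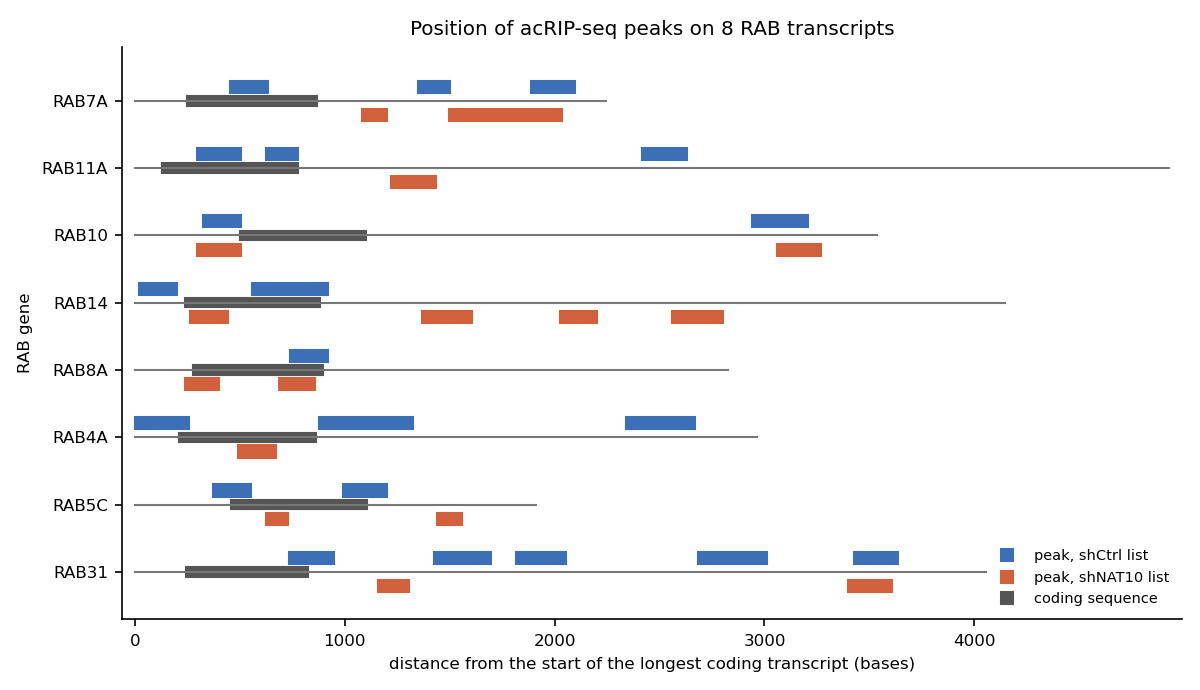
Position of acRIP-seq peaks along the longest coding transcript of 8 RAB genes, in bases from its start, with shCtrl peaks in blue above the line, shNAT10 peaks in red below it and the coding sequence as a dark bar. RAB7A and RAB11A have coding peaks in the shCtrl list alone, RAB10 has peaks at the same 2 places in both lists, and RAB4A and RAB14 change position between lists.

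Peaks and RNA levels were then set side by side. Of the 13 members that were lower in shNAT10, 10 had a peak in the shCtrl list, 6 of these also had one in the shNAT10 list, and none had a peak in shNAT10 alone. The 6 were RAB3D, RAB7A, RAB10, RAB11A, RAB11B and RAB14, and RAB3B, RAB8B, RAB15 and RAB29 had peaks in shCtrl alone (468, 211, 10.8 and 231-fold). The RAB15 peak was weak, with a deposited base-10 logarithm of the p-value of -1.5. The middle base of the RAB8B peak lay off the longest coding transcript. RAB2B, RAB20 and RAB39B had no peak. Of the 8 members that were higher, 3 had a shCtrl peak (RAB2A, RAB4A and RAB13) and 4 a shNAT10 peak (RAB4A, RAB5A, RAB12 and RAB22A), and RAB6B and RAB30 had none. Of the 25 members not called, 15 had a shCtrl peak and 12 a shNAT10 peak. The share with a shCtrl peak was 76.9% of lower members (Wilson interval 49.7% to 91.8%) and 37.5% of higher members (13.7% to 69.4%). It was 60% of members not called (40.7% to 76.6%), and these intervals overlap. The shares over all genes called lower or higher were not computed, so no background stands beside these counts. The counts rest on 1 list per group, and the members differ in RNA level between the groups, whose part in the peak lists was not tested.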

How the data were processed

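Expression and acRIP-seq peaks of shCtrl and shNAT10 PANC-1 cells were read from the deposited tables. The authors deposited FPKM values per library, and the submitters' processing notes name HISAT2 2, HTSeq 0.11.0, DESeq2 1.22.2 and GRCh38, without their roles. The deposited peak lists hold 1 pooled list per group with a fold enrichment (ratio of IP to input), the p-value of each peak and its base-10 logarithm (recorded here as a score), as deposited. The peak caller and the strand setting of the counting are not given in the sources used here.

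Genes with at least 1 FPKM in at least 3 libraries were tested as log2(FPKM + 0.1) with limma 3.58.1 (R 4.3.3), allowing the variance to depend on the mean level, and p-values were adjusted by Benjamini-Hochberg over all genes tested. Differences on this scale understate changes of low genes. FPKM values came out as whole reads for 96.6% of values within 0.01. Other steps used Python 3.11.15, numpy 2.4.6, pandas 2.3.3, scipy 1.17.1 and matplotlib 3.10.9, with transcripts from GENCODE 29. Wilson intervals (95%) cover counting error only.

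Members, gene lists and tests were chosen with earlier results of these data known. Named with every library's value were called members (up to 20 by adjusted p), the 3 highest by mean FPKM and the integrin traffic list, for regulators the 3 largest called rises and falls per list, and for acRIP-seq the 10 genes of highest enrichment and all overlapping peaks. RAB12 and the values given for members that were not called or not tested, outside those rules, were chosen after their values were seen, as were the printed sequences. Alternatives were other pseudocounts, filters and scalings, TPM, a replicate block, reads recovered from FPKM, each library left out, and stricter peak lists. A gene of the regulator lists is not reported here by name.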

Additional observations from a re-analysis of the deposited data

How the results depend on the processing

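The 21 called RAB genes kept their call in 280 values under the alternatives, lost it in 52 and changed sign in 0. Rises numbered 5 with no filter on FPKM and 13 after a transcript length and GC correction chosen after seeing the data, and falls 8 under TPM, where falls among regulators numbered 9. Over all genes that correction gave 3487 higher and 3372 lower of 12952, against 2699 and 2751 of 12982 without it. With it RAB22A lost its call, and RAB1A, RAB1B, RAB5B, RAB5C, RAB6A, RAB17, RAB21, RAB26 and RAB34 gained one. With 1 library left out, called members ranged from 11 to 28 (5 to 13 higher, 6 to 15 lower), called regulators from 39 to 66 (32 to 49 higher, 6 to 20 lower) and the NAT10 difference from -1.88 to -1.79. Calls over all genes ranged from 3550 to 6621 of 12982 in the same settings. Keeping the 50% of each peak list with the highest fold left 12 and 12 genes in shCtrl and shNAT10 and 2 in both, and the 50% with the lowest p-value left 18, 15 and 8. Sign changes were limited to members that were not called: RAB4B (0.030 under quantile normalization, 0.10 under TPM, 0.0055 with recovered reads, 0.10 with the GC correction), RAB5B (0.035), RAB18 (0.090), RAB28 (0.035) and RAB39A (0.045) under TPM, and RAB23 (-0.067), RAB31 (-0.0029) and RAB40C (0.079) with the GC correction. With 1 library left out, RAB18 ranged from -0.050 to 0.035, RAB23 from -0.037 to 0.11, RAB24 from -0.19 to 0.23, RAB27B from -0.0094 to 0.45, RAB32 from -0.17 to 0.20, RAB34 from -0.032 to 0.22, RAB35 from -0.060 to 0.080, RAB39A from -0.39 to 0.23, RAB4B from -0.12 to 0.17 and RAB5C from -0.024 to 0.28. The cause was not tested. Same-numbered libraries did not deviate together (correlations -0.04, 0.06 and 0.11), so the numbers do not pair the libraries. With a replicate block 21 members (7 higher, 14 lower) and 55 regulators (43 higher, 12 lower) were called, NAT10 differed by -1.84, RAB22A (adjusted p = 0.0505, limma) and TBC1D2B (0.0523) were no longer called, and RAB26 was (0.0431). Over all genes 5127 of 12982 were called in that setting (2524 higher, 2603 lower).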
